A study of Mus musculus with 6 samples.

Results

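The 80 genes described here encode enzymes that modify and conjugate drugs, plant compounds, steroids and fatty acids. They were chosen by name, as all genes whose symbol in the platform annotation begins with Cyp1 to Cyp4 and a letter, Gsta, Gstm, Gstp, Gstt, Ugt1, Ugt2 or Sult, out of 16675 annotated symbols on the array. The set held 48 cytochromes P450 (3 of the Cyp1 family, 29 of Cyp2, 4 of Cyp3 and 12 of Cyp4), 14 glutathione transferases, 8 glucuronosyltransferases and 10 sulfotransferases. The samples came from ob/ob mice (B6.V-Lepob/J), which lack functional leptin and become obese, and the age of the mice was not given in the sources used here. All mice were fasted for 4 h, dosed by mouth 15 min before an intraperitoneal glucose load of 1 g/kg, and killed 4 h after it. The oral dose was either PBS (the mock group) or MCSE, an aqueous extract of Momordica charantia (bitter melon) seeds. RNA of muscle, liver and adipose tissue from each of these groups was hybridised to 6 one-colour arrays, 1 per treatment and tissue label, and whether an array held the RNA of 1 mouse or of several was not given in the sources used here. With 1 array per group, no difference between MCSE and PBS has a replicate check or a p-value.

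Cytochromes P450 of families 1 to 4 are haem enzymes of the endoplasmic reticulum that insert an oxygen atom into their substrate and take electrons from the reductase Por. Glutathione transferases (Gst), UDP-glucuronosyltransferases (Ugt) and sulfotransferases (Sult) then attach glutathione, glucuronic acid or sulfate, which makes the product easier to excrete. Liver is the main site of this chemistry, and kidney, intestine and lung also carry many of the enzymes. Several of the genes are classical targets of receptors that sense foreign or lipid compounds, such as Cyp1a1 of the aryl hydrocarbon receptor, Cyp2b10 of the receptor CAR and Cyp4a10 and Cyp4a14 of PPARalpha.

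Levels are log2 intensities of the brightest probe of each gene, and a difference is the level on the MCSE array minus that on the PBS array of the same label. A gene counted as measured on a pair of arrays when at least 1 of the 2 arrays reached 8.95, the median of all probes. By this filter 64 of the 80 genes were measured on the liver pair and 42 on the muscle pair, 41 of them on both, and 15 on neither. As a partial gauge of technical error, differences were compared between measured probes of 1 gene. This spread, called the SD per probe, was 0.61 for liver and 0.52 for muscle. The probes compared lie on the same arrays, so variation between mice, or shared by a whole array, is not in this SD. The probe sequences were not used here, and members of these families are close in sequence, so a value can hold signal from a near-identical relative.

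The tissue labels were checked against marker genes. The muscle arrays carried fast-fibre genes, with a median of 16.01 on the PBS array and 15.90 on the MCSE array over 6 markers, against 9.04 and 8.90 on the PBS and MCSE arrays of liver. The liver arrays carried hepatocyte genes, with a median of 12.29 with PBS and 11.87 with MCSE over 7 markers, none at the floor of the scale. They also carried fat-cell genes (14.81 and 15.12 over 6 markers) and genes of the kidney. On the PBS and MCSE arrays of muscle the hepatocyte medians were 9.80 and 9.23. The markers were uneven, with mean liver levels above muscle by 4.83 for Ttr, 4.34 for Fgb, 4.18 for Alb and 1.85 for Tat. The gap was only 0.93 for Apoa1, 0.64 for Cps1 and 0.09 for Ahsg. The fat-cell medians on the muscle arrays were 12.86 and 12.91, so fat-cell genes were also bright there. Proximal tubule markers had a median of 14.24 on the liver PBS array and 14.67 on the liver MCSE array, against 9.49 and 10.41 on the PBS and MCSE arrays of muscle. The array labelled MCSE adipose matched the liver MCSE array, with 0 of the 64 enzyme genes measured on the liver pair 2-fold apart between them and a largest gap of 0.45. The adipose PBS array stood apart from all others, so the adipose arrays were left out of both main comparisons and enter only where they are named. "Liver" and "muscle" therefore name labels here.

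**Figure D1:**
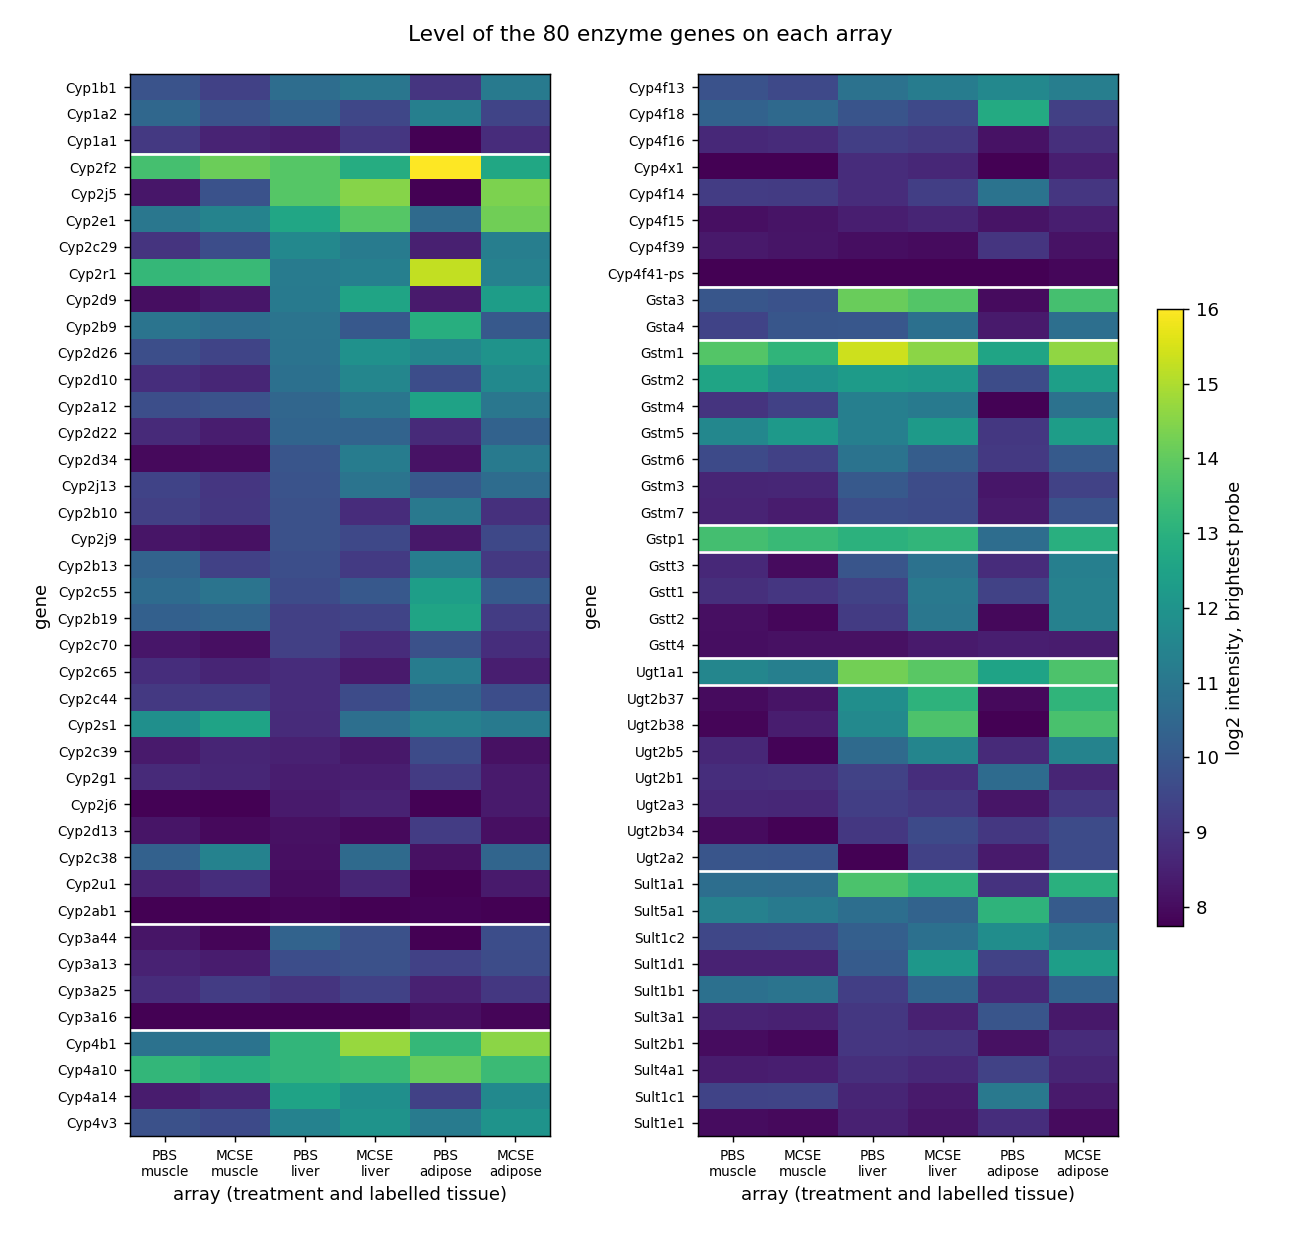
Log2 intensity of the brightest probe of each of the 80 enzyme genes (rows, by family and then by level on the liver PBS array) on the 6 arrays (columns, treatment and labelled tissue); white lines part the families and brighter colours are higher levels. Cyp2j5, Gsta3, Ugt2b37 and Ugt2b38 were higher on both liver arrays and on the adipose MCSE array than on the adipose PBS and muscle arrays.

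The first comparison asked which of these enzymes differed between liver and muscle labels, with the PBS and the MCSE array of each label as its 2 samples. On the liver arrays 31 of the 65 genes tested were higher and 2 were lower, with an adjusted p under 0.05 in limma and at least a 2-fold difference. That is 47.7% of the enzyme genes as higher, where 15.1% of all 12475 genes tested were, and 3.08% as lower, where 9.71% of all genes were. The median difference, liver minus muscle, was 1.07 over the 65 enzyme genes and 0.04 over all genes tested. Of the 31 genes, 18 did not pass the filter on the muscle pair and so entered the test through the liver arrays alone, and the sizes of their differences rest on dim muscle values. In bulk tissue, fewer cells of a type and less RNA per cell cannot be told apart.

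Among the P450 genes the steepest was Cyp2j5, an arachidonic acid epoxygenase known from kidney and liver. Its level was 13.82 on the liver PBS array, 14.49 on the liver MCSE array, 8.24 on the muscle PBS array and 9.81 on the muscle MCSE array. The liver arrays were higher by 5.13 ± 0.55 (SE, n = 2 against 2), with an adjusted p from limma of 0.00261. Cyp4a14, a fatty acid omega-hydroxylase, lay at 12.53 and 11.85 on the PBS and MCSE arrays of liver and at 8.36 and 8.63 on the muscle arrays, a gap of 3.70 ± 0.34. Cyp2d9, a steroid 16-alpha-hydroxylase of male mice, lay at 11.16 and 12.58 on the liver arrays against 8.04 and 8.24, and Cyp4b1, which oxidises fatty acids and plant furans, at 13.18 and 14.72 against 10.84 and 10.90. The labels did not overlap in these 4 genes, but this adds no support, since the genes were called on the same arrays. Cyp4a14 and Cyp2d9 were below the filter on the muscle pair, so the sizes of their differences are not exact. By family, 1 of 3 Cyp1 genes, 9 of 22 Cyp2, 2 of 3 Cyp3 and 4 of 8 Cyp4 genes tested were called higher. The calls included Cyp2e1, the ethanol-oxidising P450, Cyp2c29, Cyp3a13 and Cyp3a44, but not the AhR targets Cyp1a1 (-0.11 ± 0.35) and Cyp1a2 (-0.29 ± 0.39), nor Cyp4a10 (0.16 ± 0.28). Cyp2r1, a vitamin D hydroxylase (-2.04 ± 0.27), and Cyp2s1 (-2.44 ± 0.65) were the enzyme genes called lower in this fit. The direction for Cyp2r1 depended on the probe, since its second probe lay at 9.76 and 9.26 on the PBS and MCSE arrays of liver and at 7.97 and 8.06 on those of muscle.

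Among the conjugating enzymes, 1 of 2 Gsta, 4 of 7 Gstm, 0 of 1 Gstp, 2 of 3 Gstt, 1 of 1 Ugt1, 4 of 7 Ugt2 and 3 of 8 Sult genes tested were called higher. Gsta3, an alpha-class transferase known for conjugating the epoxide of aflatoxin, lay at 14.13 with PBS and 13.80 with MCSE on the liver arrays, against 9.94 and 9.82 on the muscle arrays. Its difference of 4.08 ± 0.29 had an adjusted p from limma of 0.000815. Ugt2b38 and Ugt2b37, both glucuronosyltransferases, were higher by 4.51 ± 0.65 and 4.37 ± 0.45, but both lay between 7.86 and 8.41 on the muscle arrays, near the floor of 7.74, so these are not exact sizes. Sult1a1, the phenol sulfotransferase, was higher by 2.68 ± 0.31 and Ugt1a1, which conjugates bilirubin, by 2.65 ± 0.29. In the mu class, Gstm1, Gstm3, Gstm4 and Gstm7 were called higher, whereas Gstm2 differed by -0.04 ± 0.32 and Gstm5 by -0.12 ± 0.42. For Gstm2 this too depended on the probe, since its second probe was 1.28 higher on the liver arrays. Gstp1, the pi-class enzyme of many tissues, was at 13.53 and 13.36 on the PBS and MCSE arrays of muscle and at 13.06 and 13.19 on the liver arrays, and was not called (-0.32 ± 0.28). All 31 genes called higher had both liver arrays above both muscle arrays on the probe used. The calls came from these same 4 arrays, so this adds no support. Apart from Ugt1a1, 5 called genes had a second probe, and in 1 of them, Cyp2d26 (3.59), it was 2-fold apart in the same direction. The second probes gave 0.17 for Cyp2c29, 0.32 for Gstm1 and -0.05 for Gstt2.

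These calls rested on the choice and number of arrays. With the adipose arrays in the fit as well, limma called 0 of the 65 genes (18 at an unadjusted p under 0.05, against 44 in the fit of 4 arrays) and 0% of all genes as higher and 0.377% as lower on the liver arrays. Without the muscle PBS array or without the muscle MCSE array, 10 enzyme genes were called higher and 0 lower. Without the liver MCSE array 7 were called lower.

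**Figure D2:**
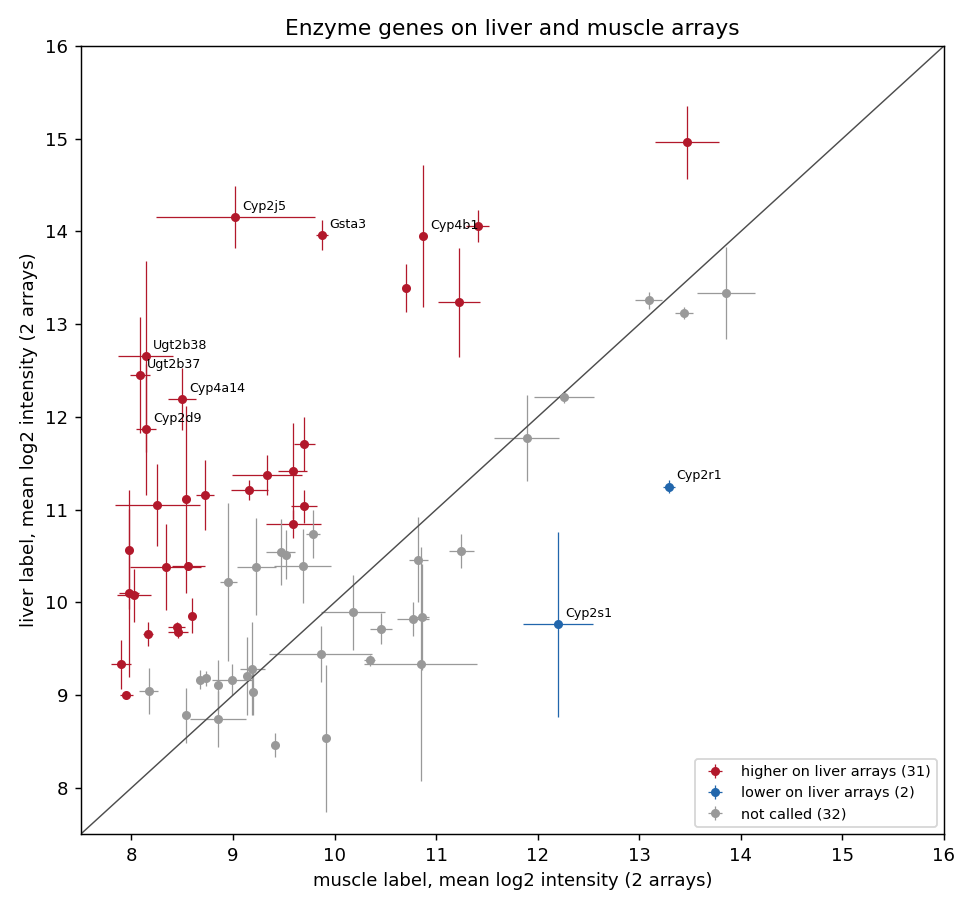
Mean log2 intensity of the 65 tested enzyme genes on the 2 muscle arrays (horizontal axis) and the 2 liver arrays (vertical axis); bars run from the lower to the higher array of a label, and colours give the call by limma in the fit of 4 arrays. The 31 genes called higher on the liver arrays lie above the diagonal, among them Cyp2j5, Gsta3, Ugt2b38 and Ugt2b37, and Cyp2r1 and Cyp2s1 lie below it.

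The second comparison set the MCSE array against the PBS array within the liver label. With MCSE, 15 of the 64 measured enzyme genes (23.4%) were 2-fold higher or more, where 8.27% of all 11342 measured genes were, and 1 (1.56%) was at least 2-fold lower, where 6.01% of all genes were. The median difference of the enzyme genes was 0.24, against -0.02 for all measured genes, and 34 of the 64 lay within the SD per probe. The higher genes comprised 7 of 22 measured Cyp2 genes, 1 of 8 Cyp4, 2 of 3 Gstt, 3 of 7 Ugt2 and 2 of 7 Sult genes, and none of the 3 Cyp1, 3 Cyp3, 2 Gsta or 7 Gstm genes. Just inside the 2-fold limit were Cyp2b10, the 1 lower gene (2.01-fold, and under 2-fold after centring on the median of all genes), Cyp2j13 and Cyp2d26 (both 1.04), and just outside it Gstm5 and Gstt3 (both 0.93) and Cyp2f2 (-0.99). Of the higher genes, Cyp2c38, Cyp2s1 and Ugt2a2 passed the filter through the MCSE array alone, and the lower gene Cyp2b10 through the PBS array alone. The sizes of their differences rest on a dim value on the other array.

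On the liver PBS array Cyp2d9 lay at 11.16, and on the liver MCSE array at 12.58, a difference of 1.42. Its neighbours Cyp2d34 and Cyp2d26 differed by 1.28 (9.93 to 11.21) and 1.04 (10.89 to 11.93). Cyp2d10 was at 0.75 and Cyp2d22 at -0.05, both short of 2-fold. A second probe for Cyp2d26 gave 1.26, so both of its probes passed 2-fold. Cyp2e1 lay at 12.64 with PBS and 13.82 with MCSE (1.18), and at 11.02 and 11.43 on the muscle arrays. Cyp4b1 lay at 13.18 and 14.72 (1.54), with 10.84 and 10.90 on the muscle arrays. For these genes the adipose MCSE array was close to the liver MCSE array, at 14.21 for Cyp2e1 and 14.58 for Cyp4b1.

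Cyp2c38, an arachidonic acid oxidase, had the steepest difference of the set, with 8.07 on the liver PBS array and 10.59 on the liver MCSE array (2.52). It lay at 10.29 and 11.40 on the PBS and MCSE arrays of muscle, so the liver PBS array was the low one of these 4. The same held for Cyp2s1 (8.77 with PBS and 10.76 with MCSE on liver, 11.86 and 12.54 on muscle), for Ugt2a2 (7.74, the floor, and 9.32, against 9.93 and 9.89) and for Sult1b1 (9.28 and 10.42, against 10.79 and 10.93). For these 4, both muscle arrays and both MCSE arrays of the liver and adipose labels exceeded the liver PBS array by 2-fold or more. Of all 938 genes that were 2-fold higher, 403 did. Without these 4, 11 enzyme genes remained 2-fold higher, and 9 of the 15 were among those called higher on liver than on muscle arrays. Second probes of Ugt2a2 (0.06, dim on both arrays) and Sult1b1 (0.25) did not pass 2-fold. On the second Sult1b1 probe the liver PBS array, at 9.28, was not the low one, since the muscle arrays lay at 7.95 and 7.83.

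The classical targets of sensing receptors lay on either side of 0. Cyp1a1 differed by 0.61 (8.44 with PBS, 9.04 with MCSE), Cyp1a2 by -0.81 (10.30, 9.49) and Cyp1b1, the P450 of the same receptor outside the liver, by 0.30 (10.69, 10.99). Cyp2b10, the CAR target, was the 1 gene past 2-fold lower, at 9.79 and 8.78 (2.01-fold), and both of its other probes, dim on both arrays, gave -0.07. Its relatives Cyp2b9 (-0.92) and Cyp2b13 (-0.60) were lower too, while Cyp2b19 was at 0.12. Cyp4a10 differed by 0.19 and Cyp4a14 by -0.68, and a second probe for Cyp4a10 gave -0.52. In the Cyp3 family Cyp3a44 was at -0.57, Cyp3a13 at 0.10 and Cyp3a25 at 0.33, and Cyp3a16 was below the filter. Cyp2f2, which activates naphthalene in lung and liver, lay at 13.83 with PBS and 12.84 with MCSE. On the muscle arrays it was about as bright, at 13.57 with PBS and 14.14 with MCSE, so its signal was not particular to the liver label. Cyp3a11, Gsta1 and Gsta2 were not analysed here.

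The 250 bases before the annotated start are given for 5 genes, namely Cyp1a1 as the classical AhR target, Cyp2j5 as the steepest gene between labels, and Ugt2b37, Ugt2b38 and Sult1d1 as neighbours that were 2-fold higher with MCSE, from RefSeq on GRCm38.p6, 5′ to 3′ on the strand of the gene. Capitals mark matches on either strand to 6 motifs, GCGTG (the AhR-ARNT core), TGACNNNGC (the NRF2 core), AGGTCA (a nuclear receptor half-site), GTTAAT (an HNF1 half-site), TATAAA (the TATA box) and AGAACA (an androgen receptor half-site). A match is a description of letters and not a bound site.
Cyp1a1 (chr9:57697363-57697612, plus strand): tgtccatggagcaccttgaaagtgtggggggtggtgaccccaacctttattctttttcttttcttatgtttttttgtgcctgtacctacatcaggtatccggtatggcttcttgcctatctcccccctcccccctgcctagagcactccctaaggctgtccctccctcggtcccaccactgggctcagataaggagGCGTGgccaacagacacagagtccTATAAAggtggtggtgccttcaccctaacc
Cyp2j5 (chr4:96664120-96664369, minus strand): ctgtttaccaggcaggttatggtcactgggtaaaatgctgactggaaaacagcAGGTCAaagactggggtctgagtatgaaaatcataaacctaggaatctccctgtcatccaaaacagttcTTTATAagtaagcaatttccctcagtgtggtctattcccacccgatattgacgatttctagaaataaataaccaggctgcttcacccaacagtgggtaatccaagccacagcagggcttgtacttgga
Ugt2b37 (chr5:87254789-87255038, minus strand): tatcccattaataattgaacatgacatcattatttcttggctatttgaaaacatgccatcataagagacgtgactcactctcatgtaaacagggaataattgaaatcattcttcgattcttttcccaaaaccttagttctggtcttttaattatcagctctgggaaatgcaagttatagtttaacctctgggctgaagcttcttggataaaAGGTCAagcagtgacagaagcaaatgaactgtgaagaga
Ugt2b38 (chr5:87424204-87424453, minus strand): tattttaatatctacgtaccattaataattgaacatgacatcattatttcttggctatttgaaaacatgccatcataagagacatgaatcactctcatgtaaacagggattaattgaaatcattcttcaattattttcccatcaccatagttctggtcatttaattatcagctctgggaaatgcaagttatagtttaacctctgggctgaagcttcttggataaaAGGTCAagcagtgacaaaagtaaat
Sult1d1 (chr5:87569007-87569256, minus strand): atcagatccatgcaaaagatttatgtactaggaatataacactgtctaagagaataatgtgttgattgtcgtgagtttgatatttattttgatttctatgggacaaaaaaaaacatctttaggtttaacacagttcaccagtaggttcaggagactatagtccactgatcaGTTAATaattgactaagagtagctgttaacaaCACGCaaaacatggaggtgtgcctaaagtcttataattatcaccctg
Cyp1a1 held GCGTG from -54 to -50 relative to its start and a TATA box from -30 to -25, and Sult1d1 held the reverse complement of GCGTG from -47 to -43, beside GTTAAT from -79 to -74. Cyp2j5 held AGGTCA from -197 to -192 and the reverse complement of TATAAA from -128 to -123. Among all 32851 promoters of this length, 28.2% held GCGTG and 6.43% held GTTAAT, against 22.2% and 8.64% of the 81 promoters of 67 enzyme genes in the table. Ugt2b37 and Ugt2b38 shared 224 identical bases over 264 aligned columns (84.8%), and each held AGGTCA, from -39 to -34 and from -25 to -20. That half-site was in 14.0% of all promoters and in 19.8% of those of enzyme genes. TGACNNNGC was in 10.2% of all promoters and 6.17% of those of enzyme genes, and AGAACA in 16.1% and 22.2%. TATAAA was in 12.4% of all promoters and in 23.5% of those of enzyme genes, which share ancestry and are not independent.

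Position in the genome was not used to choose the genes, and many of them lie in clusters of neighbours. The cluster on chromosome 5 holds, in order, Ugt2b34, Ugt2b1, Ugt2b5, Ugt2b37, Ugt2a3, Ugt2b38, Ugt2a2, Sult1b1, Sult1d1 and Sult1e1 among the genes of the set. Of its 9 measured genes on the liver pair, 5 were 2-fold higher with MCSE and 7 lay above 0, with a median of 1.14. The 5 include Ugt2a2 and Sult1b1, whose second probes gave 0.06 and 0.25, short of 2-fold. The cluster counts stand against 8.27% higher and 6.01% lower among all 11342 measured genes, of which 5562 lay above 0. Ugt2b38 lay at 11.63 with PBS and 13.68 with MCSE on the liver arrays (2.06), with 7.86 and 8.41 on the muscle arrays. Ugt2b37 lay at 11.83 and 13.08 (1.25), with 7.99 and 8.18 on muscle. Sult1d1, a sulfotransferase of catecholamines and phenols, lay at 10.10 and 12.12 (2.01), with 8.53 and 8.55 on muscle. For all 3 genes the liver MCSE and adipose MCSE arrays were the bright ones, the liver PBS array came next, and the muscle arrays were dim. Ugt2b1 (-0.55) and Ugt2a3 (-0.20) of the same cluster lay below 0. In the Cyp2d cluster on chromosome 15, 3 of 5 measured genes were 2-fold higher (median 1.04). In the cluster of Cyp2s1, Cyp2b, Cyp2g1, Cyp2a12 and Cyp2f2 genes on chromosome 7, 1 was higher and 1 lower of 7 (median -0.60).

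The theta and mu classes of glutathione transferase lay mostly on opposite sides of 0. All 3 measured genes of the Gstt cluster on chromosome 10 lay above 0, with Gstt1 at 9.36 and 11.07 (1.71), Gstt2 at 9.19 and 11.01 (1.82) and Gstt3 at 9.92 and 10.85 (0.93) on the PBS and MCSE arrays of liver. A second probe for Gstt2, dim on both arrays, gave -0.09, and the mean of both probes was 0.86, under 2-fold. In the Gstm cluster on chromosome 3, 6 of 7 genes lay below 0, with a median of -0.22 and none past 2-fold. Of these, Gstm2, Gstm3, Gstm4 and Gstm7 lay within the SD per probe, and 5776 of all 11342 measured genes also lay below 0. Gstm1, the main mu-class enzyme of liver, lay at 15.36 with PBS and 14.57 with MCSE (-0.79), and its second probe gave -0.45. The exception was Gstm5, at 11.31 and 12.24 (0.93). Gsta3 was at -0.32, Gsta4, which clears lipid aldehydes, at 0.80, and Gstp1 at 0.13. Whether theta and mu genes differ from each other was not tested, since each value comes from 1 pair of arrays.

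The other measured sulfotransferases lay within the SD per probe. Sult1a1 lay at 13.65 with PBS and 13.13 with MCSE (-0.52) on liver, Sult5a1 at -0.36, Sult1c2 at 0.53, Sult2b1 at -0.07 and Sult3a1 at -0.59. Sult1e1, which inactivates oestrogen, did not pass the filter, with 8.50 and 8.21 on the liver arrays and 8.03 and 7.96 on the muscle arrays.

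**Figure D3:**
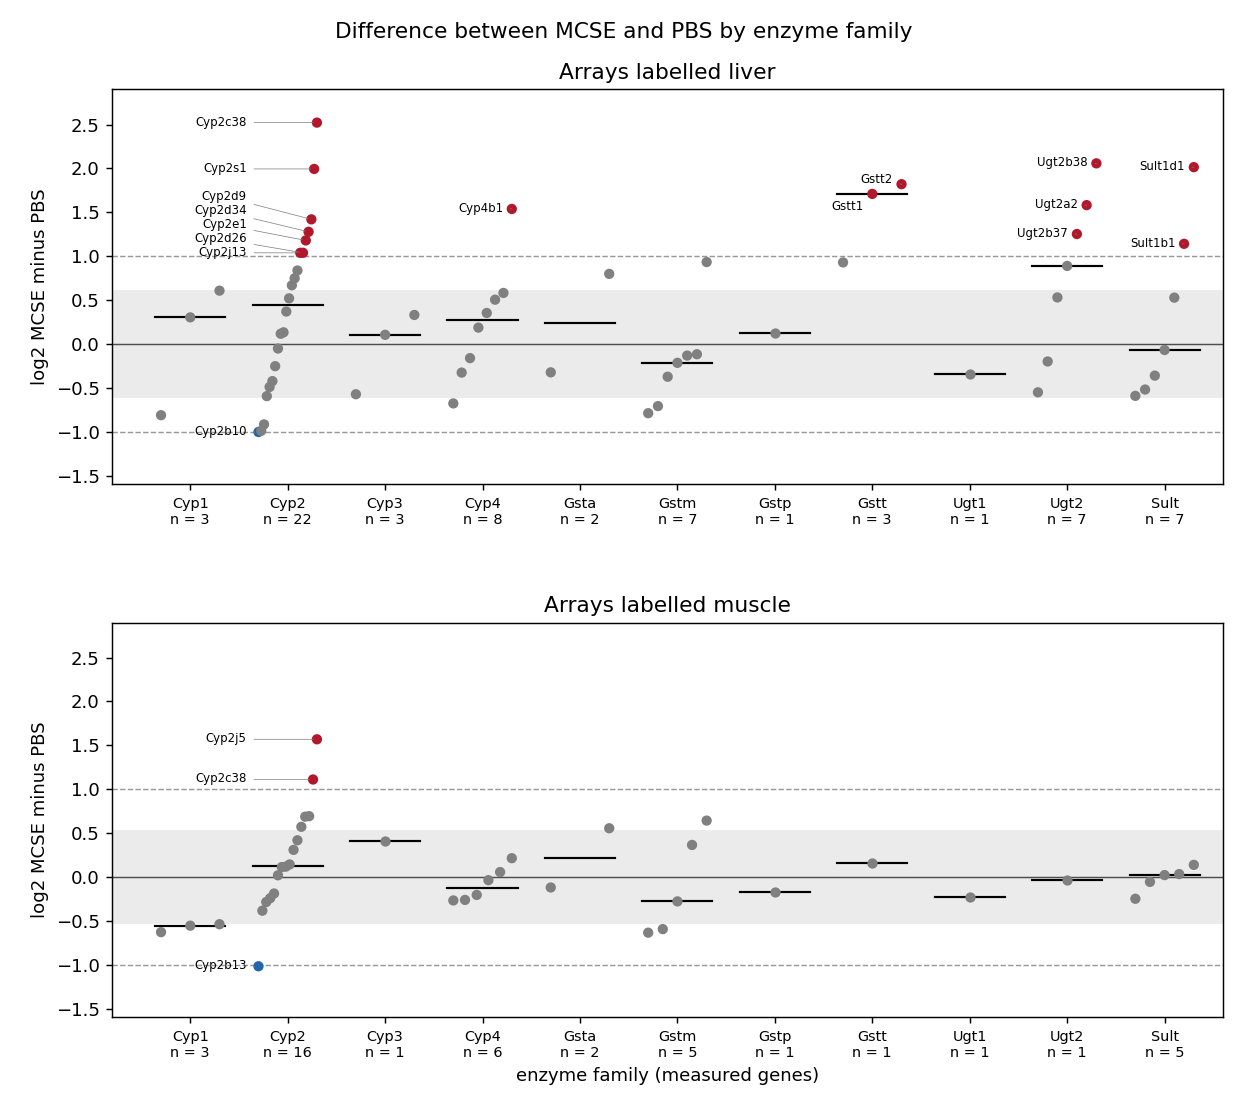
Log2 MCSE minus PBS for each measured enzyme gene (points) by family on the liver pair (upper panel) and the muscle pair (lower panel); short black lines are family medians, dashed lines mark 2-fold, the grey band is the SD per probe (0.61 and 0.52), and n counts measured genes. On the liver pair 15 genes lie at or above the upper dashed line and 1, Cyp2b10, at the lower one, and on the muscle pair Cyp2j5, Cyp2c38 and Cyp2b13 lie past them.

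Some kidney markers were also 2-fold higher on the liver MCSE array, where 8.27% of all genes were. Of 7 proximal tubule markers 3 were higher and 0 lower (median 0.97), and Kap (-0.02), Slc5a2 (0.20), Aqp1 (0.42) and Miox (0.97) did not pass. The 7 had summed intensities of 136060 with PBS and 196048 with MCSE on the liver arrays. Of 5 distal markers 3 were 2-fold higher and 0 lower (median 1.22), with sums of 13896 and 38890, and Umod, of the thick ascending limb, lay at 12.47 and 14.27, while Aqp2 (0.66) and Calb1 (0.90) did not pass. None of these 12 markers lay at the floor on either liver array. Over 7 hepatocyte markers the median difference was 0.00, with 0 higher and 1, Fgb, lower (-1.45). Of the other lists, 3 of 3 measured cardiac markers were lower (median -2.77), 1 of 6 fat-cell markers was higher, and 0 of 5 fast-fibre, 0 of 4 intestinal and 0 of 4 macrophage markers passed 2-fold. Cyp4b1, Cyp2e1 and Sult1d1 are also known from mouse kidney, and the part of kidney RNA in the enzyme differences was not tested.

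On the muscle pair few enzymes passed 2-fold. Of 42 measured genes, 2 (4.76%) were higher with MCSE, where 3.9% of all 10711 measured genes were, and 1 (2.38%) was lower, where 1.88% of all genes were, so both shares were near those of all genes. Centring each difference on the median of all genes left 2 higher and 0 lower. The median was -0.01, against -0.05 for all genes, and 29 of the 42 lay within the SD per probe. Cyp2j5 lay at 8.24 with PBS and 9.81 with MCSE (1.57), and Cyp2c38 at 10.29 and 11.40 (1.11). Cyp2j5 passed the filter through the MCSE array alone, so the size of its difference rests on a dim PBS value. Cyp2b13 was the lower one, at 10.37 and 9.35 (-1.02). On the same pair 2 of 6 measured proximal tubule markers were 2-fold higher, Kap, a kidney androgen-regulated transcript (3.20), and Slc34a1 (1.12), while Aqp1 was at -0.48 and 0 of 3 measured distal markers passed. Their part in the difference of Cyp2j5 was not tested. All 3 Cyp1 genes lay below 0, at -0.56 for Cyp1a1, -0.63 for Cyp1a2 and -0.54 for Cyp1b1. Of the 41 genes measured on both pairs, 27 had a difference of the same sign on each. The share over all genes was not computed, and many of these differences lay within the SD per probe. No measured Sult, Gst or Ugt gene passed 2-fold on the muscle pair.

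Ugt1a1 carried 21 of the 116 probes of the set, while 64 of the 80 genes had a single probe. The Ugt1 locus makes several enzymes by joining alternative first exons to a shared set of later exons, and the annotation gave all 21 probes the 1 symbol. On the liver PBS array these probes ranged from 8.38 to 14.60, with a median of 10.51, and on the liver MCSE array from 8.14 to 15.18, with a median of 10.09. Of 20 measured probes, 8 lay above 0 and 12 below, with a median of -0.14 and 1 past 2-fold (1.52). The 5 brightest on the liver PBS array differed by -0.21, 0.70, -0.35, 0.70 and 0.89. On the muscle pair 10 of 15 measured probes lay above 0 and 3 were 2-fold higher. Liver minus muscle, by the mean of the 2 arrays, ran from -0.90 to 4.17 over the 21 probes, with 12 at least 2-fold higher on the liver arrays and 0 at least 2-fold lower. A single value for Ugt1a1, such as the -0.35 of the probe used above, therefore depended on the probe.

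**Figure D4:**
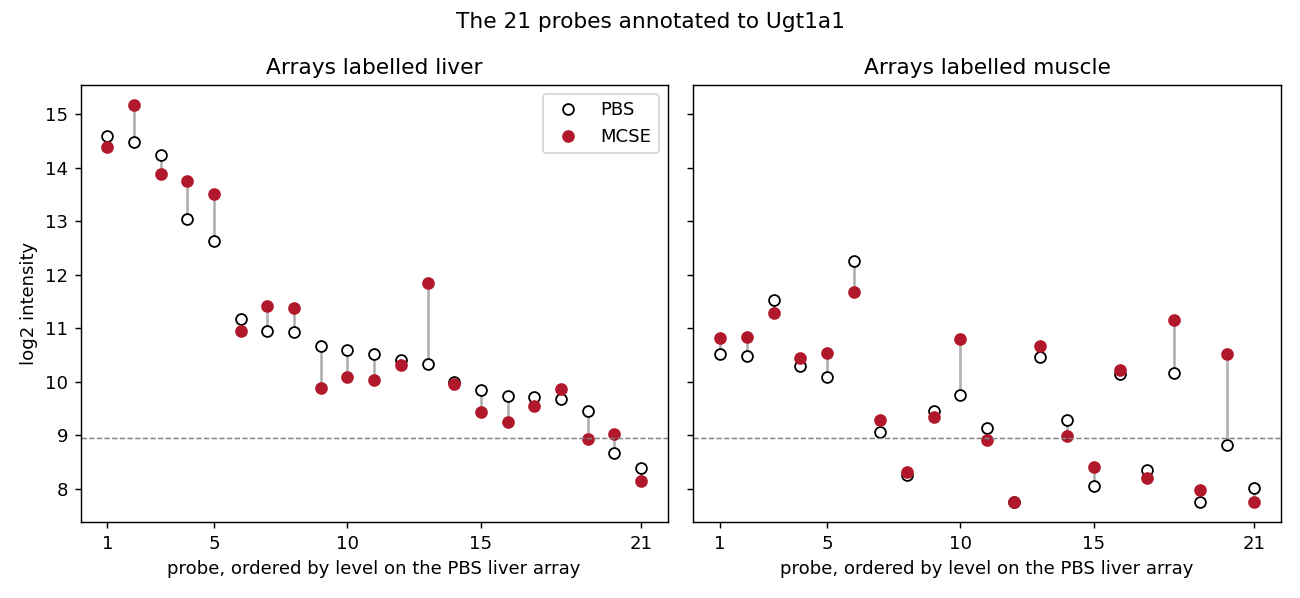
Log2 intensity of the 21 probes annotated to Ugt1a1 on the liver pair (left) and the muscle pair (right), with open circles for PBS and filled circles for MCSE; probes keep the order of their level on the liver PBS array, and the dashed line is the median of all probes (8.95). On the liver arrays levels run from 8.38 to 14.60 with PBS, and the direction of the difference changes from probe to probe.

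Apart from Ugt1a1, 9 genes of the set had 2 measured probes on the liver pair, and in 5 of them both probes had the same sign. Cyp2c29, an arachidonic acid epoxygenase, was -0.42 on its brighter probe (11.59 with PBS, 11.16 with MCSE) and 1.18 on the other (8.36, 9.54). Gstm2 was -0.13 on 1 probe and -1.06 on the other. On the muscle pair 3 of 4 such genes had 1 sign.

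Genes that work with these enzymes were followed through 7 lists of 137 genes, of which 126 were found on the array. Their counts on the liver pair stand against 8.27% higher and 6.01% lower among all measured genes. Of 11 measured sensing receptors and partners, on the liver pair 1 was 2-fold higher and 0 were lower (median 0.10). The exception was Hnf4a, a nuclear receptor of liver and kidney tubules, at 12.28 with PBS and 13.81 with MCSE (1.53). Its muscle levels, 12.34 with PBS and 12.83 with MCSE, were not below the liver PBS level, and it was not called between labels. Ahr (0.10), Arnt (0.07), Ppara (0.02) and Nfe2l2, which encodes NRF2 (0.20), were within the SD per probe on the liver pair. The genes of PXR (Nr1i2) and CAR (Nr1i3) were below the filter on both pairs. The electron donors had 0 of 8 genes past 2-fold in either direction on either pair, with Por at 0.37 on liver and -0.36 on muscle. In the label comparison 6 of these 8 were called higher on liver, where 15.1% of all genes tested were. Among the 6 were Por, by 2.08 ± 0.31, and Pgrmc1, by 2.84 ± 0.27.

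Enzymes outside the named families and transporters gave the other counts. Of 22 measured conjugating enzymes and cofactor suppliers, 3 (13.6%) were 2-fold higher with MCSE on the liver pair and 1 (4.55%) was lower. Gclc, which limits glutathione synthesis, was 1.77 higher, Papss2, which makes the sulfate donor, 1.34 and Bpnt1, which clears its by-product, 1.06, while Mgst2 was at -1.12. Of these 22, 16 were called higher and 1 lower on liver than on muscle arrays, where 15.1% and 9.71% of all genes tested were. Of 24 measured oxidising and hydrolysing enzymes, 4 (16.7%) were 2-fold higher and 2 (8.33%) lower with MCSE, with Fmo2 at 1.84, Ces1f (AU018778 in the annotation) at 1.61, Xdh at 1.46 and Fmo5 at 1.11, and Maoa at -1.40 and Adh4 at -1.01. On the liver pair Fmo5 passed the filter through the MCSE array alone (8.56 with PBS), and Adh4 through the PBS array alone (8.58 with MCSE). Fmo5 was also 2.34 higher on the muscle pair. Of 12 measured drug and bile acid transporters, 4 (33.3%) were 2-fold higher and 0 lower, namely Slc47a1 and Slc22a6 (both 1.34), Abcc2 (1.30) and Abcc4 (1.12). Slc22a6 was also on the proximal tubule list. Of 15 steroid reductases and dehydrogenases 2 (13.3%) were higher, Hsd3b5 (1.64) and Hsd3b2 (1.35), and 0 were lower. For Hsd3b5 the liver PBS array, at 9.14, lay below the muscle PBS (9.88) and muscle MCSE (10.26) arrays. Of 10 sterol, bile acid and steroid P450 genes 0 were higher and 1, Cyp7a1, was lower. Cyp7a1, the rate-limiting enzyme of bile acid synthesis, lay at 11.03 with PBS and 9.95 with MCSE on liver (-1.08). Its muscle levels, 11.26 with PBS and 10.72 with MCSE, were no lower, so its signal was not particular to the liver label. On the muscle pair the 7 lists held 2 genes past 2-fold, Fmo5 and Ugp2, which makes the precursor of the glucuronic acid donor (1.28). In limma's label comparison 11 of 24 oxidising and hydrolysing enzymes were called higher on the liver arrays and 1 lower. Of 12 transporters 6 were called higher and 1 lower, and of 16 steroid dehydrogenases 4 and 0. Of 11 other P450 genes 2 were called higher and 0 lower, and of 11 receptors 1 and 2. Among all 12475 genes tested 15.1% were called higher and 9.71% lower, so the higher counts of other P450 genes and receptors were near that share.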

How the data were processed

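The deposited values are 1 table of linear, already normalized intensities for 29922 probes and 6 arrays. Per the labels' protocols, RNA was column-extracted, amplified, labelled with Cy5 and hybridised in 1 colour. Of tools, limma appears in the submitters' processing notes with neither version nor role, and the sources used here do not state the background correction. The columns share 1 distribution, which assumes that all arrays have the same spread of intensities.

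The platform annotation, which can be old, named 21020 probes. Deposited intensities below 214.2 (the 5th percentile) were set to that floor before the log2 transform. Each gene is its brightest probe by mean log2 over 6 arrays, and a gene entered the label comparison when 1 of its 4 arrays reached the median of all probes. The label comparison used limma 3.58.1 under R 4.3.3 (lmFit, eBayes, Benjamini-Hochberg over 12475 genes, 2 residual degrees of freedom). The spread between the 2 arrays of a label holds any effect of MCSE and may be technical. Tested on simulated data, the fit found 17 of 50 genes shifted by a log2 of 1 and 50 of 50 shifted by 2, with 11 false calls. The simulated arrays were independent, every gene had the same SD (0.35), and few of the 12475 genes were shifted. The real arrays need not share these settings, so these rates may not hold for them. The genes and lists were chosen with earlier results of these data known, adipose was left out of the fit for that reason, and the promoters and motifs were chosen after the values were seen. The named genes are those 2-fold apart on a pair, the 3 brightest of a family on the PBS liver array and its brightest on the PBS muscle array, a list of receptor targets, genes whose probes disagree, and up to 4 genes per companion list and pair. Companion and cluster genes named for contrast fall outside this rule and were chosen after their values were seen. List symbols were matched to the annotation through RefSeq synonyms (7 genes), and gene order came from a GRCm38.p6 table. Python 3.11.15, numpy 2.4.6, pandas 2.3.3, statsmodels 0.14.6 and matplotlib 3.10.9 were used. The number of arrays limits the precision.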

Additional observations from a re-analysis of the deposited data

Results flagged for a closer look

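Cyp1a1 was 0.61 on the liver pair and -0.56 on the muscle pair, and Cyp2f2 -0.99 and 0.57. Each was noted because both differences exceeded the SD per probe and had opposite signs, and whether the pairs differ was not tested. For Cyp1a1 the liver difference was only just above the SD, and it was 0.35 with the trend with brightness removed and 0.56 with 32 added before log2, both below it. On the adipose PBS array, which entered neither main comparison, 14 of the 80 genes (17.5%) were at least 2-fold brighter than on every other array, among them Cyp2f2 at 16.01 and Cyp2r1 at 15.26, where 16.7% of all genes were.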

How the results depend on the processing

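The 15 genes higher with MCSE on the liver pair became 23 at 1.5-fold and 6 at 3-fold, and stayed between 11 and 16 under every other alternative run. The 1 lower gene there became 0 after centring, with the mean of all probes, with an upper quartile filter, with 32 added before log2 and at 3-fold, and 9 at 1.5-fold. On the muscle pair the 2 higher genes became 1 with the upper quartile filter, 5 at 1.5-fold and 0 at 3-fold. The 1 lower gene there became 0 after centring, after removal of a trend with brightness, with 32 added before log2 and at 3-fold, and 4 at 1.5-fold. The medians moved by less than the SD per probe. For liver against muscle labels, the fit of all 6 arrays gave 0 higher, 0 lower and 47 genes in all, against 31, 2 and 3099 in the fit of 4. The genes called lower became 5 with treatment as a term, 1 with the mean of all probes and 1 with no filter on dim genes. Leaving out 1 array gave 10 to 33 higher, 0 to 7 lower and 709 to 3656 genes in all. The cause of these shifts was not tested. Of 291 values of named enzyme genes under alternatives, 290 moved by less than the SD per probe, and 1, Gstt2 with the mean of both probes (0.86), moved by more. Many of these values could not move, so the count is no measure of robustness. A filter leaves a value as it is, and the mean of all probes changes nothing for a gene with 1 probe. The columns already shared 1 distribution, so quantile normalization could change little. The use of the adipose MCSE array for the liver MCSE array, and the removal of genes dim on the liver PBS array alone, were chosen after seeing the data. The labels give no replicate numbers, and the paired fit of the label comparison, with treatment as a term, gave 34 higher and 4098 genes in all. Dim probes limit what the low genes can show.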
